A study of Mus musculus with 20 samples.

Results

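The nuclear genes for the subunits of oxidative phosphorylation were followed in the mouse ovary. Members were all genes whose symbol starts with Nduf followed by a, b, c, s or v and a digit, with Uqcr, with Cox4 to Cox8 or with Atp5, together with Sdha, Sdhb, Sdhc and Sdhd. This rule took 84 of the 23457 genes counted. By symbol they comprise 37 genes of complex I, 4 of complex II, 8 of complex III, 18 of complex IV and 17 of complex V. Atp5s and Atp5sl are thus kept under complex V and Cox7a2l under complex IV, though none of them is a subunit. Ndufa4, known as a subunit of complex IV, is kept under complex I. The tissue was the ovary of females of the Ames dwarf strain, sequenced as polyadenylated RNA in 20 libraries, 5 in each of 4 groups. Dwarf mice are homozygous for the df allele (df/df), which leaves them without growth hormone, prolactin and thyrotropin, and are small and long-lived. Normal mice carry 1 copy of the allele (N/df), so no group is free of it. Both genotypes were sampled at 6 months and at 22 months. The df allele is carried by the whole animal, so an effect within the ovary cannot be told apart from one of the missing hormones or of body size.

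Oxidative phosphorylation makes most of the ATP of a resting cell in the inner membrane of the mitochondrion. Complexes I and II take electrons from NADH and from succinate and pass them to ubiquinone. Complex III hands them on to cytochrome c, and complex IV passes them to oxygen. Complexes I, III and IV pump protons, and complex V, the ATP synthase, makes ATP as the protons flow back. Most subunits are encoded in the nucleus. The few encoded in mitochondrial DNA had no gene row and were not analysed here. In the ovary, oocytes depend on mitochondrial ATP for maturation, and luteal cells carry out steroid synthesis in mitochondria.

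Library depth, the counts over all genes, ran from 1365640 to 36068284. Of the 20 libraries, 3 stood apart, all from normal mice. Replicate 3 at 6 months was the shallowest library and was the only one below 2000000 counts. In replicate 2 at 6 months, markers of granulosa cells, which surround the oocyte, summed to 77.4 CPM (counts scaled to a library total of 1000000), against 2301 to 3956 in the other 4 libraries of its group. Its oocyte markers summed to 5.32 CPM against 257 to 487, with Oosp1, Figla, Sohlh1 and Cyp19a1 at 0, while markers of oviduct secretory cells summed to 5628 CPM against 18.9 to 199. Replicate 3 at 22 months had 922 CPM of B-cell markers against 17.5 to 44.7 in the others of its group. The defining markers of the ovary were therefore nearly absent from 1 library. Summed oocyte markers stood at 6.78 to 46.7 CPM in normal mice at 22 months, 57.4 to 93.2 in dwarf mice at 22 months and 382 to 566 in dwarf mice at 6 months. High oviduct markers were not limited to 1 library. They summed to 1745 to 3483 CPM in normal mice and 1689 to 3197 CPM in dwarf mice at 22 months. In dwarf mice at 6 months they ran from 19.0 to 1258 CPM. The part of these cells in the results was not tested. Replicates 1 and 4 of dwarf mice at 22 months were the most alike pair of libraries within a group, with a chi-square per degree of freedom of 2.42 over 15913 genes against at least 11.6 for any other such pair, and were counted as separate. In pieces of whole tissue, fewer cells of a type and less RNA per cell cannot be told apart.

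The 84 genes together made up 0.680 to 1.45% of the counts of a library. In normal mice at 6 months they summed to 9429, 9998, 14475, 9073 and 8550.2 CPM in replicates 1 to 5. In normal mice at 22 months the sums were 9191, 9369, 6805, 9624 and 8504 CPM. Both of the extreme sums came from libraries that stood apart, the highest from the shallow library and the lowest from the library rich in B-cell markers. In dwarf mice the sums were 8638, 8896, 8474, 8689 and 9434 CPM at 6 months. They were 8123, 7124, 8912, 8308 and 8316 CPM at 22 months. Group means were 10304.9 ± 2390.2 and 8698 ± 1137 CPM for normal mice of the younger and older age, and 8826 ± 372 and 8157 ± 649 CPM for dwarf mice (SD, n = 5). Without the shallow library the mean of normal mice at 6 months was 9262 ± 609 CPM (SD, n = 4). The groups overlapped in each comparison, and no test was made on the sums.

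The sums were then taken by complex, as assigned by symbol, with Cox7a2l, Atp5s and Atp5sl included and Ndufa4 in complex I. Complex I summed to 3141 ± 1001 CPM in normal mice at 6 months (2714 ± 351 without the shallow library) and to 2609 ± 427 at 22 months, and to 2624 ± 81.3 and 2432 ± 244 in dwarf mice at 6 and 22 months. Complex II, the succinate dehydrogenase of the citric acid cycle, summed to 549 ± 23.7 CPM and 509 ± 22.9 in normal mice and to 521 ± 30.4 and 556 ± 55.1 in dwarf mice. Complex III summed to 988 ± 279.5 CPM (868 ± 83.8 without the shallow library) and 837 ± 135 in normal mice, and to 831 ± 27.0 and 768 ± 81.8 in dwarf mice. In these 3 complexes the libraries of the groups overlapped in each of the 4 comparisons of age or genotype. Complex IV summed to 1945 ± 560.4 CPM (1710.4 ± 229 without the shallow library) and 1688 ± 203 in normal mice, and to 1589 ± 78.5 and 1545 ± 111 in dwarf mice. Complex V summed to 3682 ± 569.9 CPM (3429.9 ± 102 without the shallow library) and 3055 ± 359.8 in normal mice, and to 3262 ± 173.5 and 2855 ± 197 in dwarf mice. Complex IV overlapped in all 4 comparisons as well. The dwarf groups did not overlap for complex V, with 3080.4 to 3549.7 CPM at 6 months and 2521 to 3002 at 22 months.

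**Figure D1:**
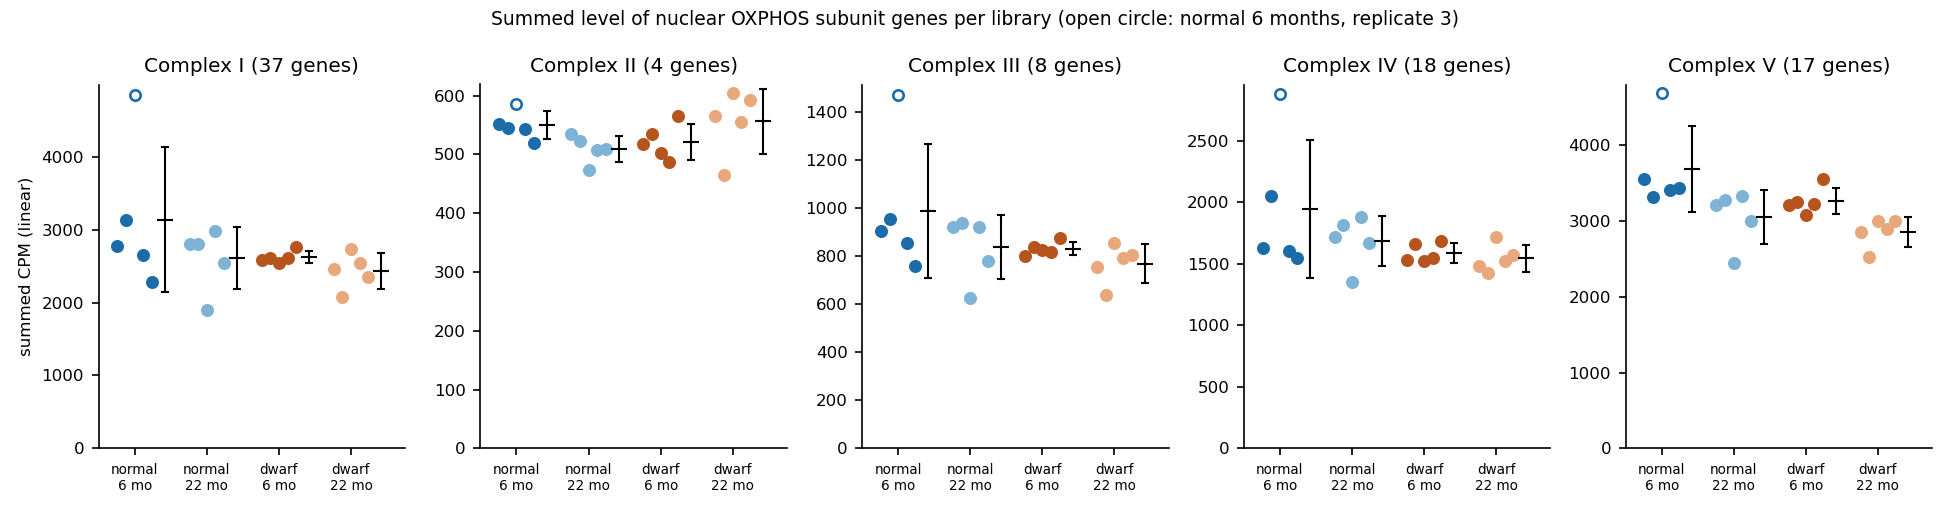
Summed CPM of the member genes of each complex on a linear axis from 0, for the 5 libraries of each group. Points are libraries, the open circle is replicate 3 of normal mice at 6 months, and black dashes with bars are the mean ± SD of 5. That library lies above the rest of its group in complexes III and V at 1471 and 4689 CPM, and complex V in dwarf mice falls into 2 ranges that do not overlap, 3080.4 to 3549.7 CPM at 6 months and 2521 to 3002 at 22 months.

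The shallow library held the highest level of its group in 71 of the 81 members with enough counts to be tested (87.7%), against 17.8% of all 16099 genes tested. Its members lay a median of 1.12 above the mean of the other 4 libraries on the log2 CPM scale. The excess was 1.18 for complex I, 0.39 for complex II, 1.08 for complex III, 1.26 for complex IV and 0.81 for complex V. Short genes as a whole were high in this library. Genes outside the list with less than 700 bases of exon deviated by a median of 1.04, those of 3000 bases or more by -0.44, and the 43 tested members under 700 bases by 1.28. The member genes are short, with a median exon length of 669 bases against 2800 for all genes tested. The ribosomal RNA gene Rn45s took 14.8% of the counts of this library against 2.40 to 10.0% in the other 19. The part of length and of Rn45s in the members' levels was not tested. Median log2 changes over the members that involve normal mice at 6 months are therefore given with and without this library. The same holds for the numbers of members called in edgeR and for the changes of some single genes. Not every other count is given in both ways.

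**Figure D2:**
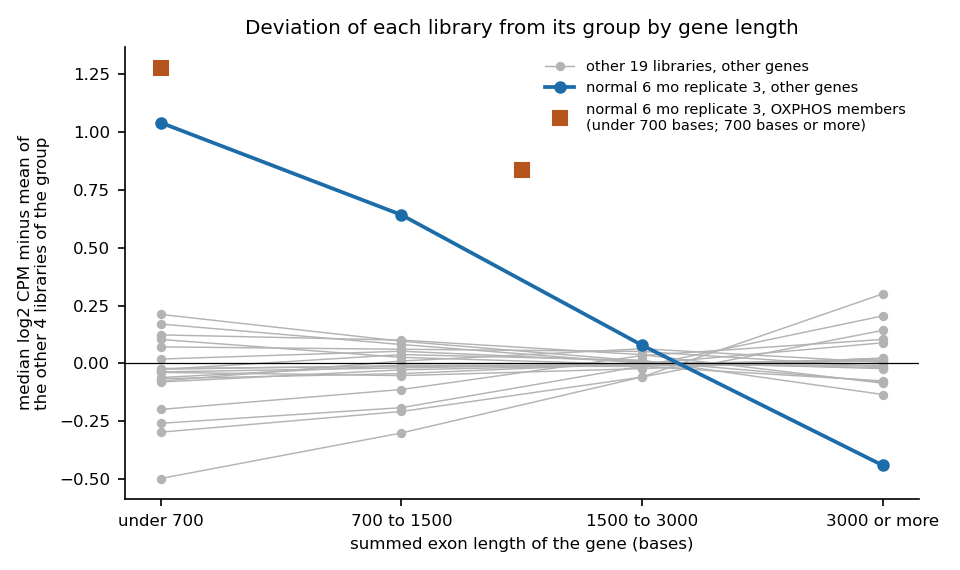
Median log2 CPM of genes minus the mean of the other 4 libraries of the group (vertical axis), by summed exon length in bases (horizontal axis), for genes outside the list. The blue line is replicate 3 of normal mice at 6 months, grey lines are the other 19 libraries, and squares are the member genes in the blue library, at 1.28 under 700 bases and 0.84 at 700 bases or more. The blue line falls from 1.04 for the shortest genes to -0.44 for the longest.

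Levels of different genes were compared only per base of exon, as TPM (counts per base scaled to 1000000 in a library) averaged over the 20 libraries. Complex V had the highest median, 456 TPM, and was led by Atp5g3 at 878 and Atp5g2 at 786, which encode the same proton-carrying c subunit. Complex IV had a median of 353 TPM and complex III one of 346. Cox6a1 and Cox4i1, the widely expressed forms of nuclear complex IV subunits, stood at 1045 and 1018 TPM, and Uqcrh and Uqcr11 of complex III at 736 and 554. Complex I had a median of 193 TPM, led by Ndufa3 at 574 and Ndufa7 at 534, both accessory subunits. Complex II had a median of 174 TPM, with Sdhb, its iron-sulfur subunit, at 255 and Sdha, its flavoprotein, at 179. The lowest tested members were alternative isoforms or genes outside the complexes. Cox8b stood at 5.83 TPM, Cox4i2 at 12.5, Ndufa4l2 at 17.3 and Cox7a1 at 19.3. Among members that match the name rule and are no subunit, Atp5s stood at 9.25 TPM, Atp5sl at 39.4 and Cox7a2l, a factor that joins complexes III and IV, at 436. Ndufa4, named for complex I and known as a subunit of complex IV, stood at 446 TPM.

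The 3 untested members had few counts or none. Cox7b2 had 1 count, in replicate 5 of dwarf mice at 6 months. Cox8c had 12 counts in that library and 0 to 2 in each of the others. Both are known as testis isoforms. Ndufs5 (mm10, chr4:123712710-123718186, minus strand), a complex I subunit, had 0 counts in all 20 libraries. In the deposited annotation 95.1% of its exon bases are also exon of BC002163 on the same strand, and BC002163 stood at 0.0728 to 2.20 CPM. A count of 0 allows a level of up to 0.0832 CPM in the deepest library and 2.20 in the shallowest, from 3 counts and for counting error only. The reads of a gene under a near-identical copy or an overlapping gene may be lost or shared in counting, and the value of Ndufs5 is no measure of its expression. Of the 84 members, 33 share over 5% of their 50-base words with another gene, and 10 overlap exons of another gene. The most shared are Atp5l at 84.9%, with Gm10221, Atp5o at 45.6% and Uqcrb at 43.4%, with 5 genes that include the pseudogene Gm16089. Cox6b1 and Cox7a1 share none and Atp5b shares 0.857%.

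Promoters of these genes are known targets of NRF1, of ETS factors such as GABP and of YY1, which together link the nuclear subunits to mitochondrial need. RefSeq promoter windows (GRCm38.p6, 250 bases before to 50 after the start) were found for 69 of the 84 members, in 75 windows. The NRF1 motif GCGCATGC, searched on both strands, was in 10 of 75 windows (13.3%) against 2.71% of all 32851 windows. In 5 of these the motif lies on both strands and overlaps itself. The ETS motif CCGGAAGT was in 5 windows (6.67%) against 3.89%, and the YY1 motif AAGATGGC in 12 (16.0%) against 2.75%. No match of 1 motif overlapped a match of another. Of the YY1 matches, 9 lay 23 to 39 bases after the start and on the gene's own strand, in Ndufa3, Ndufa9, Ndufb8, Ndufc1, Ndufs4, Ndufs6, Ndufs7, Atp5j2 and Atp5sl. At least 1 of the 3 motifs was in 26 windows (34.7%) against 8.83%. A match is a description of the letters and not of binding.

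The 250 bases before the start are shown for a member of each complex with a match and for Cox7a1, which has none. Cox7a1 was called lower in dwarf mice at 6 months with all 20 libraries, a call lost in 10 of 21 alternatives. Capitals mark the motif. They are an NRF1 motif in Ndufa6 (chr15:82354292-82354541, minus strand), in Sdhb (chr4:140961021-140961270, plus strand), in Cox6a1 (chr5:115348959-115349208, minus strand) and in Atp5g2 (chr15:102671048-102671297, minus strand). In Cox6a1 and Atp5g2 the capitals hold the motif on both strands. They are an ETS motif in Uqcr11 (chr10:80406822-80407071, minus strand), whose NRF1 match runs across the start and is not marked. Cox7a1 lies at chr7:30183921-30184170 on the plus strand. All are written 5′ to 3′ on the strand of the gene.
Ndufa6: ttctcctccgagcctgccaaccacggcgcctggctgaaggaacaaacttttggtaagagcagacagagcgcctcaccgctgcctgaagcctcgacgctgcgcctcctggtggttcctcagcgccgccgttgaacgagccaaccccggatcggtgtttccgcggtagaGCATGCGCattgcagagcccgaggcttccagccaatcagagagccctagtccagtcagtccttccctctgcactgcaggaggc
Sdhb: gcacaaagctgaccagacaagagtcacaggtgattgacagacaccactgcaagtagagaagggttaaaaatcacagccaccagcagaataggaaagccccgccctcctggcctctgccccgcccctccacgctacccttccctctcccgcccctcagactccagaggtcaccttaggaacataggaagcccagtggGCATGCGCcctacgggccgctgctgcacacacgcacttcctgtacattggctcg
Uqcr11: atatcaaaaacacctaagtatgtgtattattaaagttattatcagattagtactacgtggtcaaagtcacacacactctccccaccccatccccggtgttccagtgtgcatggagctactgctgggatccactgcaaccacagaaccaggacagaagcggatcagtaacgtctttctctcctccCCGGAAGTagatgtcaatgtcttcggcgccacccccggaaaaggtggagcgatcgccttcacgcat
Cox6a1: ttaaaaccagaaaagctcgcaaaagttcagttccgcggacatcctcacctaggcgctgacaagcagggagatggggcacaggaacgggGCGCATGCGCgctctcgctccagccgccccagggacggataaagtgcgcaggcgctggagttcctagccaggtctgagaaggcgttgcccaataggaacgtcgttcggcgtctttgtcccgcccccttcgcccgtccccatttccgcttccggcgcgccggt
Atp5g2: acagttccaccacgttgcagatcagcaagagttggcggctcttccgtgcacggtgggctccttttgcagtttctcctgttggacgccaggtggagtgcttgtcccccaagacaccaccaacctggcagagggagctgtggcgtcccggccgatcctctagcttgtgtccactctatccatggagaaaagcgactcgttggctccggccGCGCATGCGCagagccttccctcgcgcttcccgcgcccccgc
Cox7a1: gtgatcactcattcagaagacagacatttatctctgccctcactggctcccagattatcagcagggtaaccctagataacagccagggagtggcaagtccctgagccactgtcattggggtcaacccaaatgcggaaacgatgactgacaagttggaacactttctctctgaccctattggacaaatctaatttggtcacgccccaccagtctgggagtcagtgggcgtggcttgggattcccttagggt

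In normal mice, no member changed between 6 and 22 months in edgeR's quasi-likelihood test at an adjusted p under 0.05, against 6.75% of all genes tested. An unadjusted p under 0.05 was reached by 19 of 81 members (23.5%, against 23.3% of all genes). DESeq2 called 2 members (2.47%, against 11% of all genes) and limma voom with quality weights 1 (1.23%, against 24%). These weights count each library by its own quality, and limma voom stands for this weighted fit throughout. The members' median log2 change was -0.31 against -0.02 over all genes, and 76 of 81 lay below 0 (93.8%, against 51.4%). Without the shallow library the median was -0.02, and 44 of 81 lay below 0 (54.3%, against 48.0% of all genes). The members called stayed at 0 (5.77% of all genes), with 2 at an unadjusted p under 0.05 (2.47%, against 21.4% of all genes). By complex, the medians with all 20 libraries were -0.34 for complex I, -0.17 for II, -0.29 for III, -0.39 for IV and -0.28 for V. Without the shallow library they were -0.02, -0.05, 0.01, 0.10 and -0.05.

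The members at the ends of this comparison were Atp5s and Cox4i2. Atp5s stood at 5.26, 4.95, 2.20, 4.24 and 5.23 CPM at 6 months and at 6.12, 6.87, 5.84, 7.13 and 8.36 CPM at 22 months in normal mice. All 5 older libraries lay above all 5 younger ones. The log2 change was 0.59 ± 0.20 (SE, adjusted p = 0.0877 in edgeR). Atp5s was the only member of 81 whose age groups did not overlap in normal mice (1.23%, against 2.39% of all genes). Cox4i2, a form of subunit 4 known from lung and from low oxygen, stood at 7.83, 0.947, 11.7, 3.83 and 7.45 CPM at 6 months and at 3.70, 2.15, 2.59, 7.13 and 3.45 CPM at 22 months. The groups overlapped, and the change was -0.76 ± 0.48 (adjusted p = 0.350 in edgeR), or -0.37 ± 0.45 without the shallow library (adjusted p = 0.689).

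When all 3 libraries that stood apart were left out, 11 members passed the test for age in normal mice, 10 higher (12.3%, against 16.7% of all genes) and 1 lower (1.23%, against 12.9%), and the median was 0.08. The members' share of rises was thus no larger than that of all genes. The 10 higher at 22 months were Cox4i1, Cox7a2l, Cox8a, Ndufa4, Ndufa11, Ndufa13, Ndufb7, Ndufb11, Ndufc2 and Ndufv3. Their log2 changes ran from 0.34 in Ndufv3 to 0.60 in Ndufc2. The 1 lower was Atp5b, the catalytic beta subunit of the ATP synthase, with -0.30 ± 0.10 (adjusted p = 0.0360 in edgeR). With all 20 libraries its change was -0.41 ± 0.12 (adjusted p = 0.0556).

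In dwarf mice, 2 members rose between 6 and 22 months (2.47%, against 2.92% of all genes) and 1 fell (1.23%, against 8.27%). They were Uqcrb and Cox6b1, which rose, and Atp5b, which fell. An unadjusted p under 0.05 was reached by 15 members (18.5%, against 28.1% of all genes). The median log2 change over members was -0.17 against 0.00 over all genes, with 60 of 81 below 0 (74.1%, against 49.9%). By complex the medians were -0.17 for complex I, -0.12 for II, -0.20 for III, -0.11 for IV and -0.20 for V. The number of genes called rests on the model, for members and for genes at large alike. DESeq2 called 5 members (6.17%, against 17.1% of all genes), limma voom 28 (34.6%, against 46.7%), and edgeR 20 when only the dwarf groups were fitted (24.7%, against 32.6%). In each of these fits the members' share was below that of all genes.

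Uqcrb (mm10, chr13:66900621-66905350, minus strand) encodes the ubiquinone-binding subunit of complex III. In dwarf mice it stood at 4.08, 5.58, 7.27, 3.66 and 5.82 CPM at 6 months. At 22 months it stood at 21.8, 20.6, 17.5, 19.9 and 32.0 CPM. The lowest older library lay above the highest younger one. The log2 change was 2.00 ± 0.39 (SE, adjusted p = 0.00481 in edgeR), and it stayed past the threshold in each of the 21 alternatives run, with log2 values from 1.85 to 2.17. In normal mice the same gene stood at 7.06, 8.23, 7.32, 8.56 and 26.7 CPM at 6 months and at 7.45, 18.2, 26.5, 10.4 and 12.8 CPM at 22 months. These groups overlapped, with a log2 change of 0.36 ± 0.38 (adjusted p = 0.601 in edgeR). The difference between the age changes of dwarf and normal mice was 1.63 ± 0.54 and did not pass the test (adjusted p = 0.594 in edgeR). The 3 libraries whose titles carry the numbers 21, 22 and 23 (replicate 5 of normal mice at 6 months, replicate 3 of normal mice at 22 months and replicate 5 of dwarf mice at 22 months) each had the highest Uqcrb level of their group, at 26.7, 26.5 and 32.0 CPM. This was so for 2 of 81 members, Uqcrb and Sdha (2.47%, against 2.34% of all genes). Without these 3 libraries the change with age was 1.87 ± 0.25 in dwarf mice (adjusted p = 0.00184 in edgeR) and 0.58 ± 0.27 in normal mice (adjusted p = 0.278), and the difference of genotypes at 6 months was -0.63 ± 0.26 (adjusted p = 0.177) in place of -1.18 ± 0.39 (adjusted p = 0.0940). Since 43.4% of its words are shared with other genes, its counts may hold reads of copies or lack its own, and this was not tested.

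Cox6b1 (mm10, chr7:30616974-30626151, minus strand) encodes a subunit at the contact between the monomers of the complex IV dimer. In dwarf mice it stood at 84.4, 93.6, 82.5, 86.3 and 88.9 CPM at 6 months and at 136, 133, 126, 128 and 177 CPM at 22 months. No older library fell into the range of the younger ones. The log2 change was 0.61 ± 0.18 (adjusted p = 0.0336 in edgeR). Leaving out replicate 1, 3 or 4 of the 6-month group, or replicate 1, 2 or 5 of the 22-month group, ended the call, with an adjusted p of up to 0.0742. So did leaving out title numbers 21 to 23 (0.55 ± 0.17, adjusted p = 0.0536 in edgeR). The call was thus lost in 7 of 21 alternatives. In normal mice it stood at 99.4, 134, 176, 108 and 174 CPM at 6 months and at 121, 144, 154, 118 and 140.4 CPM at 22 months, with a log2 change of -0.08 ± 0.18 (adjusted p = 0.837 in edgeR). The difference between the age changes was 0.68 ± 0.25 (adjusted p = 0.601 in edgeR).

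Atp5b (mm10, chr10:128083307-128090388, plus strand) stood at 724, 713, 721, 692 and 813 CPM in dwarf mice at 6 months. At 22 months it stood at 558, 526, 615, 595 and 641 CPM. All older libraries lay below all younger ones. The log2 change was -0.40 ± 0.12 (adjusted p = 0.0438 in edgeR), and it missed the threshold in 13 of 21 alternatives, among them leaving out any library of the 2 groups except replicate 2 at 6 months. In normal mice Atp5b stood at 790.5, 624, 821, 813 and 829 CPM at 6 months and at 674, 652, 485, 646 and 557 CPM at 22 months. These groups overlapped through replicate 2 at 6 months, the library lowest in granulosa markers. The difference between the age changes was 0.00 ± 0.18 (adjusted p = 1.00 in edgeR).

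**Figure D3:**
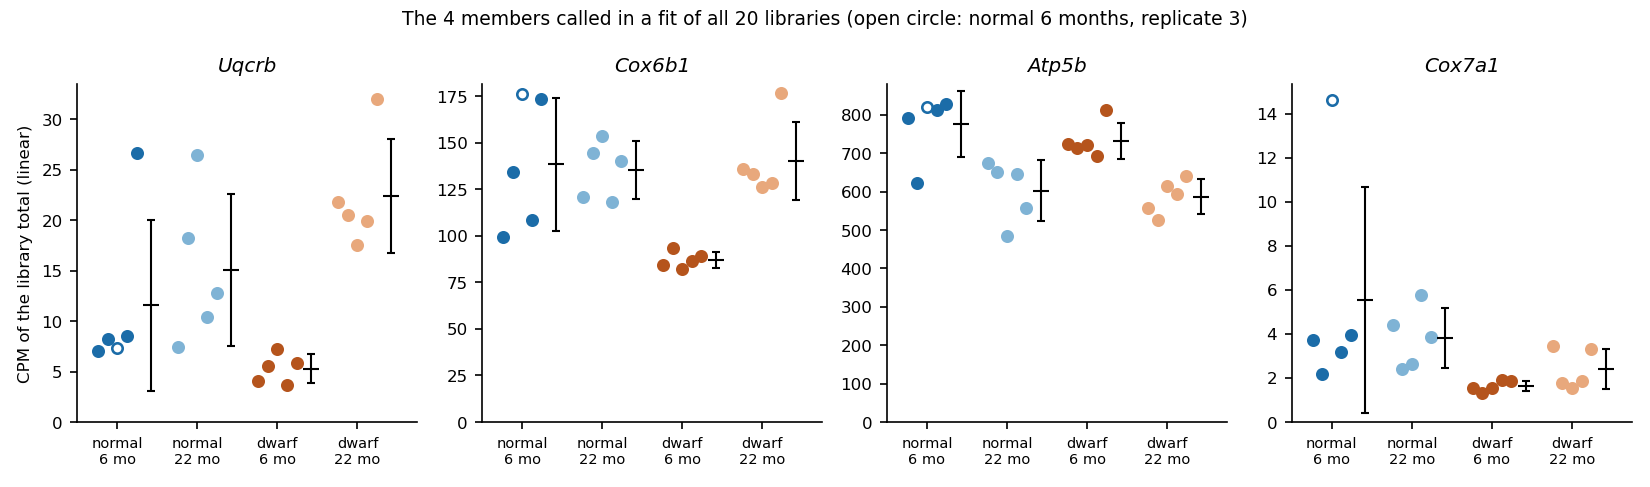
CPM of the library total, on linear axes from 0, for the 4 members that passed the test in a fit of all 20 libraries (Uqcrb, Cox6b1, Atp5b and Cox7a1), by group. Points are libraries, the open circle is replicate 3 of normal mice at 6 months, and black dashes with bars are the mean ± SD of 5. In dwarf mice the age groups of Uqcrb, Cox6b1 and Atp5b do not overlap, and Cox7a1 reaches 14.6 CPM in the open circle alone.

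In dwarf mice 15 of 81 members had age groups that did not overlap in CPM (18.5%, against 22.1% of all genes). Higher at 22 months were Uqcrb, Cox6b1, Sdha, Ndufa4, Ndufa13 and Atp5g1. The lower members included Atp5b, Atp5d, Atp5g2, Atp5o, Ndufa8, Ndufa10, Ndufb6 and Ndufv1. Of the 9 lower members, 4 belong to the ATP synthase and 5 to complex I. Atp5g2, a c subunit gene, stood at 248, 254, 238, 268 and 271 CPM at 6 months and at 199, 205, 201, 177 and 206 CPM at 22 months. Its log2 change was -0.45 ± 0.16 (adjusted p = 0.0645 in edgeR). Sdha stood at 219, 225, 203, 198 and 226 CPM at 6 months and at 275, 228, 278, 268 and 281 CPM at 22 months, with a log2 change of 0.23 ± 0.10 (adjusted p = 0.133 in edgeR). The groups of Sdha were separated by the narrow gap between 226 and 228 CPM.

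Without the 3 libraries that stood apart, none of which is a dwarf library, 7 members rose with age in dwarf mice (8.64%, against 13.3% of all genes) and 12 fell (14.8%, against 15.4%). The median was -0.13. The 7 that rose were Uqcrb, Cox6b1, Cox8b, Atp5s, Ndufa4, Ndufa13 and Sdha. The 12 that fell included Atp5b, Atp5d, Atp5g2, Atp5o, Cox7c, Ndufa7, Ndufa8, Ndufa10, Ndufa12, Ndufv1 and Uqcrfs1, the iron-sulfur protein of complex III. The log2 changes of these ran from -0.46 in Uqcrfs1 to -0.30 in Ndufa7. Ndufc1, the member with the most negative log2 change with all 20 libraries, stood at 26.4, 27.1, 21.3, 27.5 and 27.2 CPM at 6 months and at 11.9, 8.79, 21.7, 25.4 and 14.6 CPM at 22 months. The groups overlapped, with a change of -0.73 ± 0.37 (adjusted p = 0.202 in edgeR).

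At 6 months, 2 members were lower in dwarf than in normal mice (2.47%, against 2.3% of all genes), Cox6b1 and Cox7a1. None was higher, against 2.27% of all genes, in edgeR. DESeq2 called 7 members, all lower in dwarf mice (8.64%, against 8.78% of all genes called in either direction). Of all 16099 genes it called 806 lower. Limma voom called 2 members, also lower (2.47%, against 11.6% of all genes in either direction), and 954 of all genes lower. An unadjusted p under 0.05 was reached by 26 members (32.1%, against 18.4% of all genes), and by 10 without the shallow library (12.3%, against 19.2%). The median log2 difference, dwarf minus normal, was -0.35 against -0.04 over all genes, with 77 of 81 below 0 (95.1%, against 54.1%). Without the shallow library the median was -0.07, and 52 of 81 lay below 0 (64.2%, against 52.7% of all genes). In that fit 1 member, Cox6b1, passed the test (4.87% of all genes). With all 20 libraries the medians were -0.30 for complex I, -0.11 for II, -0.48 for III, -0.48 for IV and -0.35 for V. Without the shallow library they were -0.03, -0.07, -0.14, -0.17 and -0.09.

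Cox6b1 was lower in dwarf mice at 6 months by a log2 difference of -0.73 ± 0.18 (adjusted p = 0.0242 in edgeR), or -0.54 ± 0.15 without the shallow library (adjusted p = 0.0412). All 5 dwarf libraries, at 82.5 to 93.6 CPM, lay below all 5 normal ones, at 99.4 to 176 CPM. The difference missed the threshold in 5 of 21 alternatives, namely limma voom, the fit of only the groups compared and leaving out replicate 1, 3 or 4 of the dwarf group. At 22 months the genotypes overlapped, with a difference of -0.05 ± 0.18 (adjusted p = 0.946 in edgeR).

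Cox7a1 (mm10, chr7:30184171-30186030, plus strand) encodes the heart and muscle form of subunit 7a. It stood at 3.72, 2.18, 14.6, 3.17 and 3.94 CPM in normal mice at 6 months and at 1.56, 1.31, 1.55, 1.90 and 1.86 CPM in dwarf mice. Each dwarf library lay below each normal one, and the value of 14.6 CPM came from the shallow library, where it rests on 20 counts. The log2 difference was -1.69 ± 0.47 (adjusted p = 0.0467 in edgeR). Without the shallow library it was -0.95 (adjusted p = 0.0807 in edgeR), and leaving out any 1 dwarf library also ended the call. The call was lost in 10 of 21 alternatives. Among these were no low-count filter, the replicate number as a block, only the groups compared and leaving out title numbers 21 to 23. At 22 months Cox7a1 stood at 4.39, 2.40, 2.65, 5.78 and 3.87 CPM in normal mice and at 3.46, 1.78, 1.56, 1.88 and 3.33 CPM in dwarf mice, and the groups overlapped. Markers of striated muscle summed to 204 CPM in the shallow library, to 15.5 to 78.1 in the other normal libraries at 6 months and to 14.9 to 38.2 in dwarf mice at 6 months. Their part in the level of Cox7a1 was not tested.

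The genotypes did not overlap at 6 months in 4 members, Atp5g1, Cox6b1, Cox7a1 and Ndufa3, all lower in dwarf mice (4.94%, against 5.88% of all genes). Atp5g1, a c subunit gene, stood at 118, 168, 194, 129 and 154 CPM in normal and at 112, 114, 106, 115 and 116 CPM in dwarf mice. The log2 difference was -0.50 ± 0.15 (adjusted p = 0.0584 in edgeR), or -0.32 ± 0.11 without the shallow library (adjusted p = 0.0942). Ndufa3 stood at 95.8, 124, 213, 92.4 and 93.4 CPM in normal and at 72.0, 76.0, 83.1, 73.8 and 75.9 CPM in dwarf mice, with a difference of -0.77 ± 0.23 (adjusted p = 0.0560 in edgeR), or -0.39 ± 0.13 without the shallow library (adjusted p = 0.0827). Without the 3 libraries that stood apart, 4 members were lower in dwarf mice (4.94%, against 5.64% of all genes) and the median was 0.01. These were Cox5a at -0.53, Cox6b1 at -0.51, Cox7a1 at -1.09 and Uqcrb at -1.39.

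At 22 months no member differed between genotypes in edgeR's test (3.81% of all genes passed). An unadjusted p under 0.05 was reached by 7 members (8.64%, against 18% of all genes). DESeq2 called 0 members (7.46% of all genes) and limma voom 17 (21.0%, against 14.2%). The median log2 difference was -0.19 against -0.04 over all genes, and 68 of 81 members lay below 0 (84.0%, against 55.2%). By complex the medians were -0.20 for complex I, 0.00 for II, -0.19 for III, -0.25 for IV and -0.20 for V. No member had genotypes that did not overlap at this age, against 7.24% of all genes. The most negative was Ndufa4l2, an isoform of Ndufa4 known to respond to low oxygen. It stood at 17.2, 3.69, 6.60, 13.5 and 5.25 CPM in normal and at 3.60, 3.36, 3.20, 2.51 and 8.52 CPM in dwarf mice. The difference was -1.22 ± 0.50 (adjusted p = 0.197 in edgeR).

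With the 3 libraries left out, 17 members were lower in dwarf than in normal mice at 22 months (21.0%, against 5.4% of all genes), and the median was -0.24. They include Ndufa3, Ndufa7, Ndufa8, Ndufc2 and Ndufs8 of complex I, Uqcr11, Uqcrh and Uqcrq of complex III, Cox4i1, Cox5b, Cox7c and Cox8a of complex IV, and Atp5d, Atp5e, Atp5j2 and Atp5k of complex V. By complex they were 6 of 36 tested genes of I, 0 of 4 of II, 3 of 8 of III, 4 of 16 of IV and 4 of 17 of V. The 4 genes of complex II are too few to set against the others. Leaving out only the 22-month library rich in B-cell markers gave 0 called members (3.1% of all genes) and a median of -0.23. The other 2 libraries left out belong to the 6-month group and enter this comparison only through the shared estimates of spread and scale. The 17 members of the voom fit of all libraries, 16 of them lower, shared 12 with these 17, which is 70.6% of each list. The lists come from largely the same libraries, and no such share was taken over all genes. The overlap is therefore no separate evidence.

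Atp5d, the delta subunit in the central stalk of the ATP synthase, stood at 228, 271, 162, 280.0 and 212 CPM in normal mice at 22 months and at 157, 141, 172, 178 and 191 CPM in dwarf mice. The groups overlapped through normal replicate 3, which is the library rich in B-cell markers. The difference was -0.54 ± 0.19 with all libraries (adjusted p = 0.125 in edgeR) and -0.62 ± 0.12 without the 3 (adjusted p = 0.00351). Uqcrq, a small subunit of complex III, stood at 129, 91.5, 61.8, 121 and 92.5 CPM in normal and at 64.6, 52.0, 85.2, 72.0 and 74.5 CPM in dwarf mice. It differed by -0.59 ± 0.25 with all libraries (adjusted p = 0.211 in edgeR) and by -0.70 ± 0.15 without the 3 (adjusted p = 0.00671). Ndufc2, an accessory subunit of complex I, stood at 65.1, 95.4, 40.4, 98.1 and 55.4 CPM in normal and at 45.0, 38.8, 65.0, 46.2 and 36.1 CPM in dwarf mice. It differed by -0.70 ± 0.25 (adjusted p = 0.131 in edgeR) and by -0.82 ± 0.18 without the 3 (adjusted p = 0.00722).

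No member had an age change that differed between genotypes, and 0% of all genes passed this test in edgeR. DESeq2 and limma voom also called 0 members, and 0.106% and 0.0559% of all genes. An unadjusted p under 0.05 was reached by 4 members (4.94%, against 7% of all genes), with a median of 0.14 for the change in dwarf minus the change in normal mice. Without the shallow library the median was -0.09, and without the 3 libraries -0.25, so its sign turned. In the last fit 66 of 81 members lay below 0 (81.5%, against 55.4% of all genes). In it 24 had an unadjusted p under 0.05 (29.6%, against 23.9% of all genes) and 0 were called (1.23% of all genes). The most positive member was Cox8b at 2.19 ± 1.02 (adjusted p = 0.707 in edgeR), which was 0.72 without the 3 libraries. Cox8b, a muscle and brown fat form of subunit 8, stood at 0.187, 0.356, 0.135, 0.984 and 0.222 CPM in dwarf mice at 6 months and at 1.20, 1.78, 0.967, 0.627 and 2.41 CPM at 22 months. In normal mice it stood at 0.257, 2.04, 3.66, 0.401 and 0.431 CPM at 6 months and at 0.493, 0.258, 0.943, 0.964 and 1.59 CPM at 22 months. These levels are near the value that a few counts give. Markers of brown fat cells summed to 8.65 to 51.8 CPM in dwarf mice at 6 months and to 27.0 to 61.2 at 22 months, and their part was not tested.

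**Figure D4:**
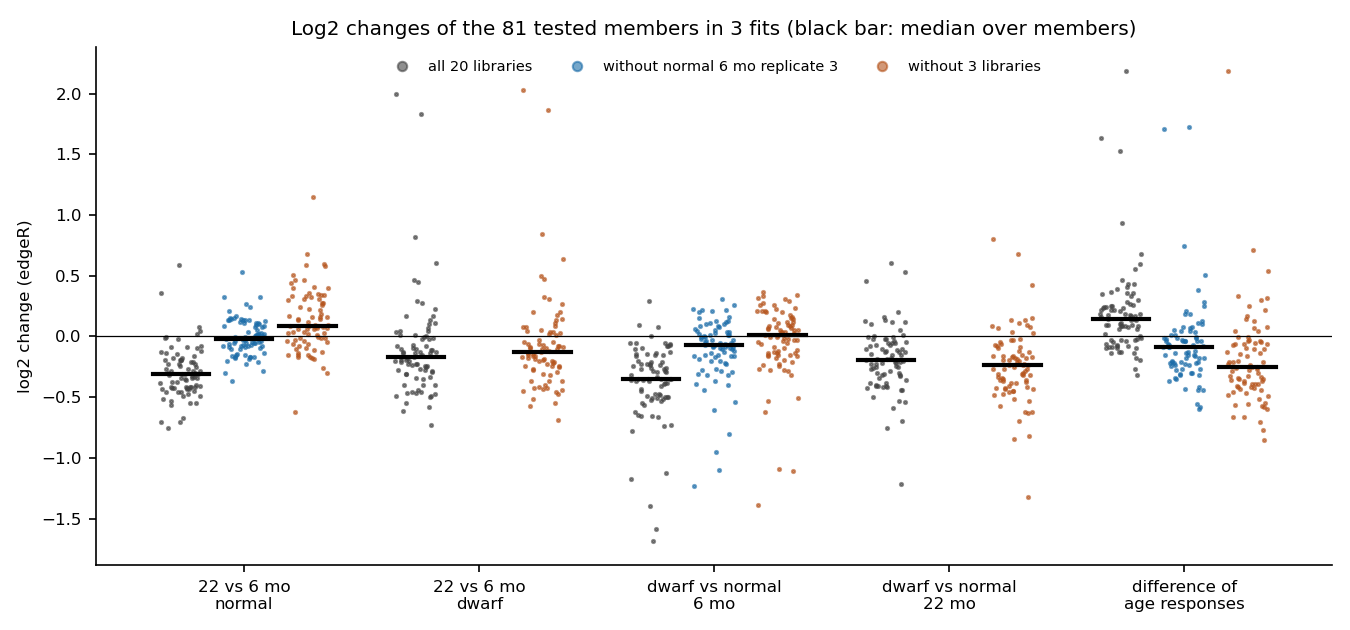
Log2 change of each of the 81 tested members (points) in edgeR for 5 comparisons, with black bars at the median. Grey is the fit of all 20 libraries, blue the fit without replicate 3 of normal mice at 6 months, drawn where that group enters, and orange the fit without 3 libraries. The median of age in normal mice moves from -0.31 to -0.02 and 0.08, that of genotype at 6 months from -0.35 to -0.07 and 0.01, and that of the difference of age responses from 0.14 to -0.09 and -0.25.

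Some subunits have 2 or more genes, 1 of them expressed in most tissues and the other in muscle, testis or low oxygen. The ratio of the 2 genes was taken within each library, which sets scaling aside. It was compared for 8 pairs over 4 comparisons by exact two-sided permutation of 5 against 5 libraries. The planned pair of Cox7b2 and Cox7b was not compared, since Cox7b2 had 1 count in all. None of the 32 tests had an adjusted p under 0.05, and 6 had an unadjusted p under 0.05, where the smallest p this design allows is 0.00794. A single test at that smallest p could not pass the adjustment over 32 tests, so the absence of calls says little. The common isoform had more counts in each library for the pairs of complex IV. In no pair of complex IV did the mean log2 ratio of a group exceed -2.36, that of Cox6b2 to Cox6b1 in dwarf mice at 6 months.

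The log2 ratio of Cox7a1 to Cox7a2, the muscle and the liver form, was -4.78, -5.60, -3.30, -4.99 and -4.27 in normal mice at 6 months. In dwarf mice at 6 months it was -5.89, -6.18, -5.75, -5.73 and -5.72. The ranges did not overlap, and the difference of the means was -1.27 (exact permutation p = 0.00794, adjusted p = 0.127), or -0.95 without the shallow library (adjusted p = 0.127 by exact permutation). The ratio of Atp5g1 to Atp5g3, which encode the same mature c subunit, was -1.26, -1.30, -1.44, -1.42 and -1.60 in dwarf mice at 6 months and -0.74, -0.23, -1.09, -1.15 and -0.82 at 22 months. Each older library lay above each younger one, with a difference of 0.60 (exact permutation p = 0.00794, adjusted p = 0.127). In normal mice the same ratio differed by 0.19 with age, and the groups overlapped (exact permutation p = 0.556, adjusted p = 0.847).

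The other 4 with an unadjusted p under 0.05 had groups that overlapped. The ratio of Cox6b2, a testis form, to Cox6b1 was higher in dwarf mice at 6 months by 0.66 (exact permutation p = 0.0159), or by 0.78 without the shallow library. In dwarf mice it was lower at 22 than at 6 months by a difference of -0.50 (exact permutation p = 0.0238). The counts of Cox6b2 itself did not pass the test in either comparison, while Cox6b1 did. Its log2 values were -0.06 (0.26 without the shallow library) and 0.11. With age in dwarf mice, the ratio of Cox6a2 to Cox6a1 differed by 0.95 and that of Cox8b to Cox8a by 1.93 (exact permutation p = 0.0238 for each). All 4 had an adjusted p of 0.127 by exact permutation. Cox6a2 and Cox8b are the muscle forms of their subunits.

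**Figure D5:**
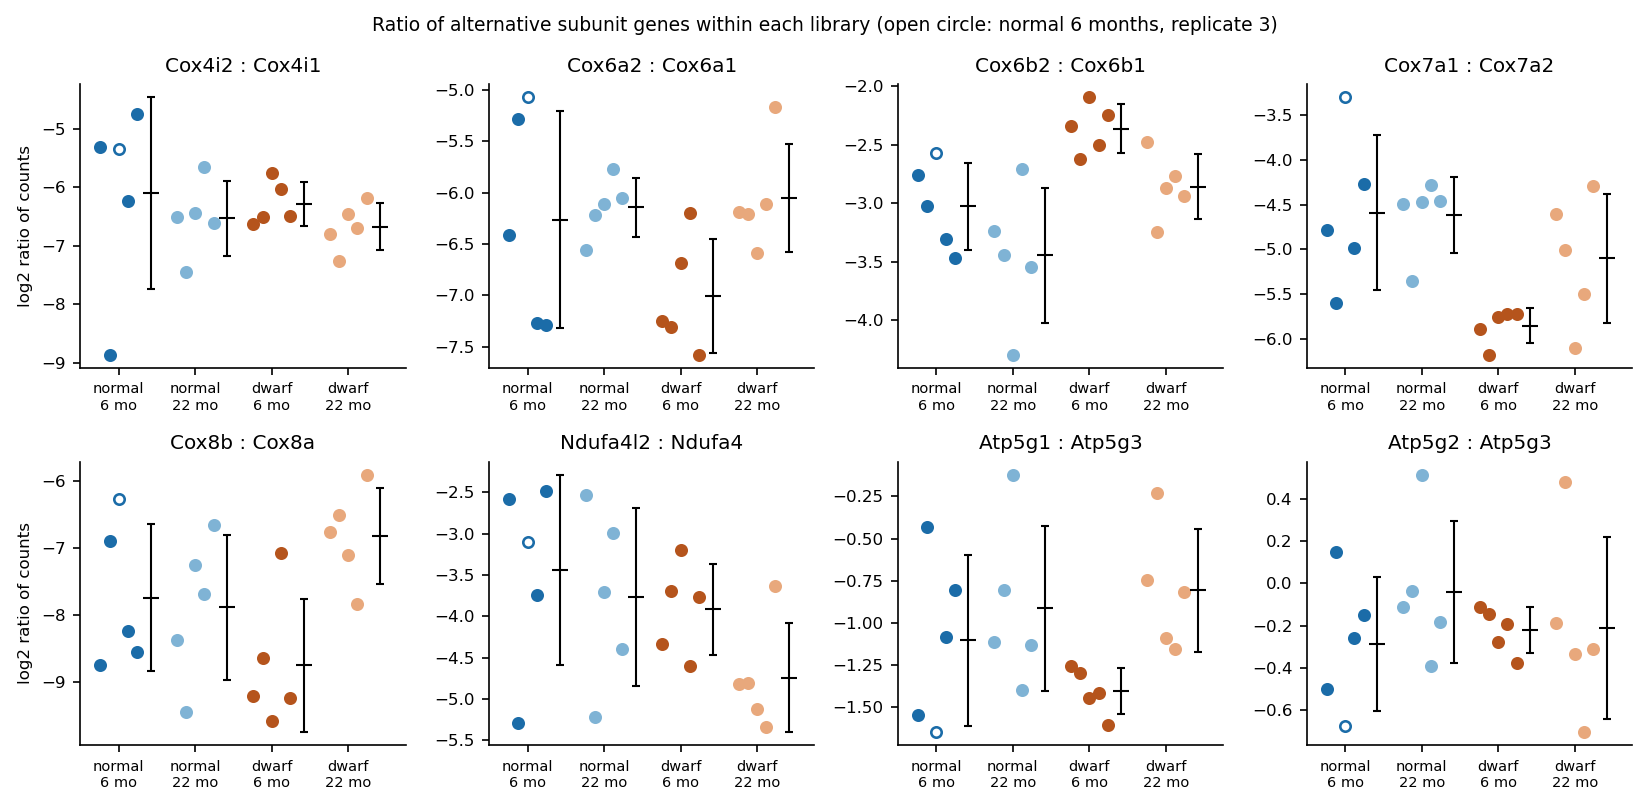
Log2 ratio of counts between 2 genes for the same subunit (or, for Ndufa4l2 and Ndufa4, related genes) within each library, by group, for 8 pairs, each panel with its own axis. Points are libraries, the open circle is replicate 3 of normal mice at 6 months, and black dashes with bars are the mean ± SD of 5. The 5 dwarf libraries at 6 months lie between -6.18 and -5.72 for Cox7a1 to Cox7a2, below all normal libraries of that age.

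Genes that work with the complexes were taken from lists of related pathways, whose shares called stand against the same shares of all genes as above. Of 41 tested assembly factors, 1 fell with age in dwarf mice (2.44%, against 8.27% of all genes), Cox10, which makes the heme of complex IV (-0.62 ± 0.17, adjusted p = 0.0250 in edgeR). A further 1 was lower in dwarf than in normal mice at 6 months (2.44%, against 2.3%), Pet100 (-0.75 ± 0.21, adjusted p = 0.0445 in edgeR), and no assembly factor passed there without the shallow library. No assembly factor was called for age in normal mice or for genotype at 22 months. Of 15 tested genes for electron carriers and the exchange of ADP and ATP, 1 fell with age in dwarf mice (6.67%, against 8.27%), Slc25a5, an ADP/ATP carrier (-0.44 ± 0.13, adjusted p = 0.0416 in edgeR). The other 3 comparisons called 0 of these 15.

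Of 18 citric acid cycle genes, 1 or 2 were called in each comparison, so that 1 gene is 5.56% of the list. Idh3a fell with age in normal mice (-0.41 ± 0.11, adjusted p = 0.0335 in edgeR), and 0 of the 18 passed without the shallow library (Idh3a at -0.30, adjusted p = 0.0773). In dwarf mice Mdh2 fell with age by 0.39 on the log2 scale and Sucla2 rose by 0.60. Ogdh was lower in dwarf mice at 6 months (-0.67 ± 0.12, adjusted p = 0.00329 in edgeR), and Mdh2 was lower in them at 22 months (-0.37 ± 0.10, adjusted p = 0.0343). In the fit without the shallow library Idh2 was also called at 6 months, higher in dwarf mice by 0.54. Of 16 regulators of mitochondrial genes, 1 rose (6.25%, against 2.92% of all genes) and 5 fell (31.2%, against 8.27%) with age in dwarf mice. The 1 that rose was Ppargc1a, a coactivator of genes for mitochondria (1.37 ± 0.36, adjusted p = 0.0212 in edgeR). Among the 5 were Nrf1, whose motif was searched above (-0.74 ± 0.16, adjusted p = 0.00735 in edgeR), Pprc1, a coactivator of nuclear genes for mitochondria (-0.95 ± 0.21, adjusted p = 0.00748), and Polrmt, the mitochondrial RNA polymerase (-0.48 ± 0.12, adjusted p = 0.0172). The other 2 act in the copying of mitochondrial DNA, Polg at -0.53 and Peo1 at -0.57. In normal mice Pprc1 was the 1 regulator that passed with all libraries (6.25%, against 6.75% of all genes), at -0.88 ± 0.21 (adjusted p = 0.0171 in edgeR). In the fit without the shallow library 3 passed, Pprc1 at -1.02 and Peo1 at -0.58, which fell, and Ppargc1a at 1.27, which rose. For genotype 0 regulators were called at either age with all libraries, and without the shallow library Polg2 was higher in dwarf mice at 6 months (0.89 ± 0.24, adjusted p = 0.0394 in edgeR).

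Of 16 glycolysis genes, Ldhb (-0.70) and Hk2 (-0.91) fell with age in dwarf mice (12.5%, against 8.27% of all genes). At 6 months 3 were lower in dwarf mice (18.8%, against 2.3%), namely Aldoa (-0.66), Tpi1 (-0.50) and Gapdh (-0.73), and 1 was higher, Ldhb (0.77). These 4 were also called without the shallow library, with values of -0.53, -0.43, -0.53 and 0.92. Tpi1 was also lower in dwarf mice at 22 months (-0.42 ± 0.10, adjusted p = 0.0234 in edgeR). Median log2 differences between genotypes at 6 months were -0.19 for assembly factors, -0.40 for electron carriers and ADP/ATP handling, -0.17 for the citric acid cycle, 0.09 for regulators and -0.28 for glycolysis, beside -0.35 for the member genes. Without the shallow library these medians were -0.11, -0.18, -0.20, 0.12, -0.32 and -0.07. The members' median moved by more than that of any of the 5 other lists. No gene of these lists was called for the difference of the age changes.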

How the data were processed

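Frozen ovaries gave total RNA by Trizol and then Illumina libraries of polyadenylated RNA, per the labels' protocols. The submitters' processing notes name HTSeq, TopHat2 2.0.10, TopHat, Bowtie2, edgeR and DESeq and the build mm10. Whether the counting used strand is not given in the sources used here. Deposited by the authors were counts of reads per gene, 1 table per library, with 5 summary rows that held 9.84 to 17.6% of the counts and were left out here. The authors also deposited the gene annotation, whose coordinates and exon lengths were used.

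Here CPM was the count over the library total without the summary rows. Counts per base of exon, scaled to 1000000 per library (TPM), served only to compare genes. Genes passing filterByExpr (minimum count 10, minimum total 15) were fitted as 4 group means over all 20 libraries in edgeR 4.0.16 (R 4.3.3), with TMM scaling and the robust quasi-likelihood test. A call is an adjusted p under 0.05 (Benjamini-Hochberg) over the 16099 genes tested. The SE after ± is the absolute log2 change over the square root of F. Isoform ratios were log2 ratios of counts + 0.5 within a library, compared by exact permutation.

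Genes with values are the 2 members of each complex with the highest TPM, all members called, the extremes of each contrast, alternative isoforms, members left untested and rule matches that are no subunit, and up to 3 called genes of each pathway list with the smallest p. Members named for the fit without 3 libraries, for groups that do not overlap or for their promoter were chosen after their values were seen. Some members that these rules name are not reported here. The members, lists, motifs and alternatives were chosen with earlier results of these data known. Alternatives were other scalings, filters and tools (DESeq2 1.42.0, limma 3.58.1 voom with quality weights per library). The others were the replicate number as a block, libraries left out, Rn45s removed, and only the groups compared. The limma voom fit thus changed the weight of libraries as well as the tool. Depth ranged from 1365640 to 36068284 counts. The labels do not say that the replicates are separate mice, so p-values measure only the spread between these libraries, which may be technical.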

Additional observations from a re-analysis of the deposited data

Results flagged for a closer look

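In 21 of 168 groups of 5 libraries, the highest or lowest library lay apart from the other 4 by more than Dixon's 95% limit. Chance alone exceeds this limit in about 1 of 20 groups where values are independent and normally spread. Here the items share libraries, some sums contain others, and many genes were named for their values. The 21 can therefore not be set against that rate. Of the 21, 8 were in replicate 3 of normal mice at 6 months, the shallow library. Its summed level was 1471 CPM for complex III, 4689 for complex V and 14475 for all members, against 757 to 953, 3311 to 3560 and 8550.2 to 9998 in the other 4 libraries. Its Atp5g2 was 381 CPM against 228 to 252.4, its Cox6a2 15.4 against 1.69 to 5.53, its Cox7a1 14.6 against 2.18 to 3.94, its Ndufa3 213 against 92.4 to 124 and its Sdhb 231 against 98.5 to 135. In replicate 2 of the same group, the library lowest in granulosa markers, Atp5b was low at 624 CPM against 790.5 to 829. In replicate 5 of that group Uqcrb was 26.7 CPM against 7.06 to 8.56.

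In normal mice at 22 months, the log2 ratio of Cox7a1 to Cox7a2 was -5.35 in replicate 2 against -4.50 to -4.28. Cox4i1 was 228 CPM in replicate 3, the library rich in B-cell markers, against 339 to 382. Cox6a2 was 5.78 CPM in replicate 4 against 2.24 to 3.04.

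In dwarf mice at 6 months, Atp5b was 813 CPM in replicate 5 against 692 to 724, Cox8b was 0.984 CPM in replicate 4 against 0.135 to 0.356, and Ndufc1 was 21.3 CPM in replicate 3 against 26.4 to 27.5. In dwarf mice at 22 months, replicate 5 had high levels of Cox6a2 (7.96 CPM against 2.17 to 3.23), Cox6b1 (177 against 126 to 136) and Ndufa4l2 (8.52 against 2.51 to 3.60). Atp5g2 was 177 CPM in replicate 4 against 199 to 206, and Sdha was 228 CPM in replicate 2 against 268 to 281.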

How the results depend on the processing

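The number of members called depended on the tool and on the libraries, as did that of all genes. For age in normal mice (0 with all libraries) it was 2 in DESeq2, 1 in limma voom, 1 with Rn45s removed and 11 without the 3 libraries that stand apart, and 0 to 4 with 1 library left out. For age in dwarf mice (3) it was 5 in DESeq2, 28 in limma voom, 20 with only the groups compared, 19 without the 3 libraries, 1 without title numbers 21 to 23, and 1 to 3 with 1 library left out. For genotype at 6 months (2) it was 4 with the library total alone as scaling, 1 with no low-count filter, 7 in DESeq2, 0 with only the groups compared, 4 without the 3 libraries, 5 without title numbers 21 to 23, 5 with Rn45s removed, and 0 to 8 with 1 library left out. For genotype at 22 months (0) it was 17 in limma voom and 17 without the 3 libraries. The interaction gave 0 in each of the 30 alternatives. For age in normal mice the share of all genes called was 6.75% with all libraries. It was 11% in DESeq2, 24% in limma voom, 7.58% with Rn45s removed, 29.6% without the 3 libraries and 2.97 to 26.9% with 1 library left out. For age in dwarf mice the share was 11.2% with all libraries. It was 17.1% in DESeq2, 46.7% in limma voom, 32.6% with only the groups compared and 28.7% without the 3 libraries. Without title numbers 21 to 23 it was 10.4%, and with 1 library left out 4.94 to 10.3%. For genotype at 6 months it was 4.57% with all libraries. It was 3.91% with the library total alone, 3% with no low-count filter, 8.78% in DESeq2 and 1.43% with only the groups compared. It was 12.2% without the 3 libraries, 4.74% without title numbers 21 to 23, 4.91% with Rn45s removed and 2.27 to 8.97% with 1 library left out. The 8 members called without replicate 5 of normal mice at 6 months were 9.88%, against 4.6% of all genes. At 22 months the share of all genes moved from 3.81% to 14.2% in limma voom and 10.8% without the 3 libraries.

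Medians that changed sign were 0.084 for age in normal mice and 0.0098 for genotype at 6 months without the 3 libraries, and, for the interaction, -0.12 in limma voom, -0.25 without the 3 libraries and -0.091 to 0.29 with 1 library left out. The medians of age in dwarf mice and of genotype at 22 months kept their sign in all 21 alternatives each. With Rn45s removed, summed levels in dwarf mice at 6 months were 2781, 552, 881, 1684 and 3458 CPM for complexes I to V and 9356 for all, and complex II was 588 and 546 CPM in normal mice at 6 and 22 months. Taking Rn45s out of the library total raises the CPM of each other gene by construction. The sums rose in all groups, as for complex I from 3141 to 3399 CPM in normal mice at 6 months. The cause of the changes of sign in the medians was not tested. All 384 alternatives for isoform ratios kept their side of the threshold. With 32 tests, several at the smallest possible p would be needed for any to pass. This outcome was thus nearly fixed in advance and does not measure stability.

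Deviations of same-numbered libraries of different groups had correlations of -0.22 to 0.72 over 30 pairs, with a median of 0.00 and 10 above 0.1. Pairs of replicate 2 libraries were all positive, at 0.07 to 0.72. Such correlations cannot show whether the numbers pair the libraries by design, and the main fit did not pair them. With the replicate number as a block, the members called were 0, 2, 1, 0 and 0 in the 5 comparisons, with medians of -0.26, -0.18, -0.30, -0.20 and 0.09.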
